A study of Mus musculus with 8 samples.

Results

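The genes described here are 38 markers of the blood vessels of the brain, picked by name from the 33971 genes of the deposited table. They fall into 4 lists, which are 15 pan-endothelial genes, 10 genes of the blood–brain barrier, 7 genes of endothelial tip cells and vessel sprouting, and 6 genes of mural cells. All 38 were found in the table and all 38 passed the filter on low counts, so none is missing from the values below.

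RNA was taken from whole brains of wild-type (WT) mouse embryos at E14.5, a stage of embryonic development. The mothers, also WT and mated with WT males, were on a choline-deficient diet (CDD, 4 brains) or on normal chow (ND, 4 brains). The series text and the methods start the diets on the day of mating, whereas a supplementary legend of the study places the start before mating. The number of dams and litters was not given, so every p-value measures the spread between these brains, and neither embryo sex nor batch was named. Levels are given as CPM, the counts of a gene relative to the scaled total of its library, and differences as log2 fold changes of CDD over ND from edgeR's quasi-likelihood test, where an adjusted p (Benjamini-Hochberg over 19367 genes) under 0.05 is called a change.

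Endothelial cells line every vessel, and in the brain their tight junctions, efflux pumps and selective transporters form the blood–brain barrier, which keeps most solutes of the blood out of the tissue. Vessels grow into the embryonic brain from the surrounding perineural plexus, led by tip cells that follow VEGF, while Wnt7a and Wnt7b from neural progenitors induce barrier genes in the endothelium through β-catenin. Mural cells, which are pericytes on capillaries and smooth muscle cells on arteries, are recruited by endothelial PDGF-B acting on the receptor Pdgfrb.

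Of the 38 vascular genes, 5 differed between the diets. *Cldn5* and *Abcb1a*, both barrier genes, and *Vtn* and *Rgs5*, both pericyte genes, were lower in CDD brains, and *Mmrn2*, a pan-endothelial gene, was higher. That is 1 member higher and 4 lower, or 13.2% of the 38, beside 8.83% of all genes tested (4.24% higher and 4.59% lower). At an unadjusted p under 0.05 there were 9 members, 1 higher and 8 lower, where 23.9% of all genes passed (11.8% higher and 12.1% lower). The called differences were small, between −0.31 and 0.36 on the log2 scale, and 14 of the 15 pan-endothelial genes did not pass the test.

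For each of the 4 called genes that fell, the members that were lower together, the 300 bases around its RefSeq transcription start are printed. They run from 250 bases before to 50 after the start, from RefSeq on GRCm38.p6, and all 4 genes lie on the plus strand. Capitals mark every match, on either strand, to 6 short motifs, namely TCF/LEF (CTTTGA), ETS (AGGAAG), SOX (ACAAT), the CCAAT box (CCAAT), the TATA box (TATAAA) and the GC box (GGGCGG). The windows are chr16:18776597-18776896 for *Cldn5*, chr5:8566841-8567140 for *Abcb1a*, chr11:78498870-78499169 for *Vtn* and chr1:169655251-169655550 for *Rgs5*. The *Abcb1a* window lies before the start of the gene in the deposited table (8710077), whereas the windows of *Cldn5*, *Vtn* and *Rgs5* lie after theirs. The builds differ, so whether the *Abcb1a* window adjoins the start of the counted gene was not established.
Cldn5: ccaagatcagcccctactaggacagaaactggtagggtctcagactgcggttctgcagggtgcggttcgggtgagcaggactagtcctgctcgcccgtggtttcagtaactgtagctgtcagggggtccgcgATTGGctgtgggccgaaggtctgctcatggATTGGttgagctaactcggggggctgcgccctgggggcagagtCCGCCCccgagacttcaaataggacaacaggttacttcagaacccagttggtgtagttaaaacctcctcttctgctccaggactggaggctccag
Abcb1a: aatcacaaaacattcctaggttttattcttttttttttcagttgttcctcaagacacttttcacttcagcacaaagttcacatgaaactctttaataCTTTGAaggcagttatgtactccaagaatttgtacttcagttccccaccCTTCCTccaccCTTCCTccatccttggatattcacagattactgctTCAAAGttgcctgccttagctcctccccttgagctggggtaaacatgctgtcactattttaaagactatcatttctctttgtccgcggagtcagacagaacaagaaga
Vtn: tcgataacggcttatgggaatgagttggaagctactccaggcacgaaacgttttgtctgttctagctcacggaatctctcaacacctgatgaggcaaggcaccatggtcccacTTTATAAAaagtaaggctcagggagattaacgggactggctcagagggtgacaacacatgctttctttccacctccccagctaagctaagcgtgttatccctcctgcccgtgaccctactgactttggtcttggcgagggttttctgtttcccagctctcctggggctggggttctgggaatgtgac
Rgs5: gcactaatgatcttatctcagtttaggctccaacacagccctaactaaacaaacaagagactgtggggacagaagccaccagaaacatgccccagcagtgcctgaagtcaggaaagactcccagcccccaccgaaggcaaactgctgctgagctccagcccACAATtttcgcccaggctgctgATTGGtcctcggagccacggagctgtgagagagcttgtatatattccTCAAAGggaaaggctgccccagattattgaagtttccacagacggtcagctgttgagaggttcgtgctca

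*Cldn5* held a CCAAT box at −118 and another at −88 and a GC box at −45, counted from the start to the leftmost base of the match. *Abcb1a* held TCF/LEF letters at −153 and −58 and ETS letters at −104 and −93. *Vtn* held TATA letters on both strands, at −137 and −135, which overlap each other and are the only overlapping matches in these windows. *Rgs5* held SOX letters at −89, a CCAAT box at −67 and TCF/LEF letters at −20. None of the 6 motifs stood in all 4 windows. Promoter entries were found for 24 of the 38 members, and *Mmrn2* was not among them. Of those 24 genes, TCF/LEF letters stood at 4, ETS at 12, SOX at 6, CCAAT at 8, TATA at 5 and GC box at 11. The shares of all 32851 windows of the same length were 16.0%, 35.4%, 31.0%, 37.4%, 13.6% and 35.7%. A gene was counted if any of its windows matched (29 windows for the 24 genes), whereas the shares are per window, so the units differ. A match of such short letters is a description of the sequence and not a binding site.

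The vascular genes spanned a wide range of levels. Compared per length, by the deposited FPKM averaged over the 8 brains, *Cldn5* stood highest at 40.8, followed by *Vtn* (22.5), *Rgs5* (17.0) and *Tjp1* (15.4). *Cdh5* and *Mfsd2a*, both at 11.3, could not be ordered, and *Esm1* (0.429) and *Tagln* (0.143) were lowest. Tight junction and pericyte genes thus led the list, and the defining endothelial and mural markers were present in every brain. In 36 of the 38 genes every brain had 100 counts or more. The exceptions were *Esm1*, with 16 to 44 counts, and *Tagln*, a smooth muscle gene, with 2 to 14 counts, so that values of both rest on few reads. The median coefficient of variation of a member was 7.03% among CDD brains and 5.47% among ND brains.

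**Figure D1:**
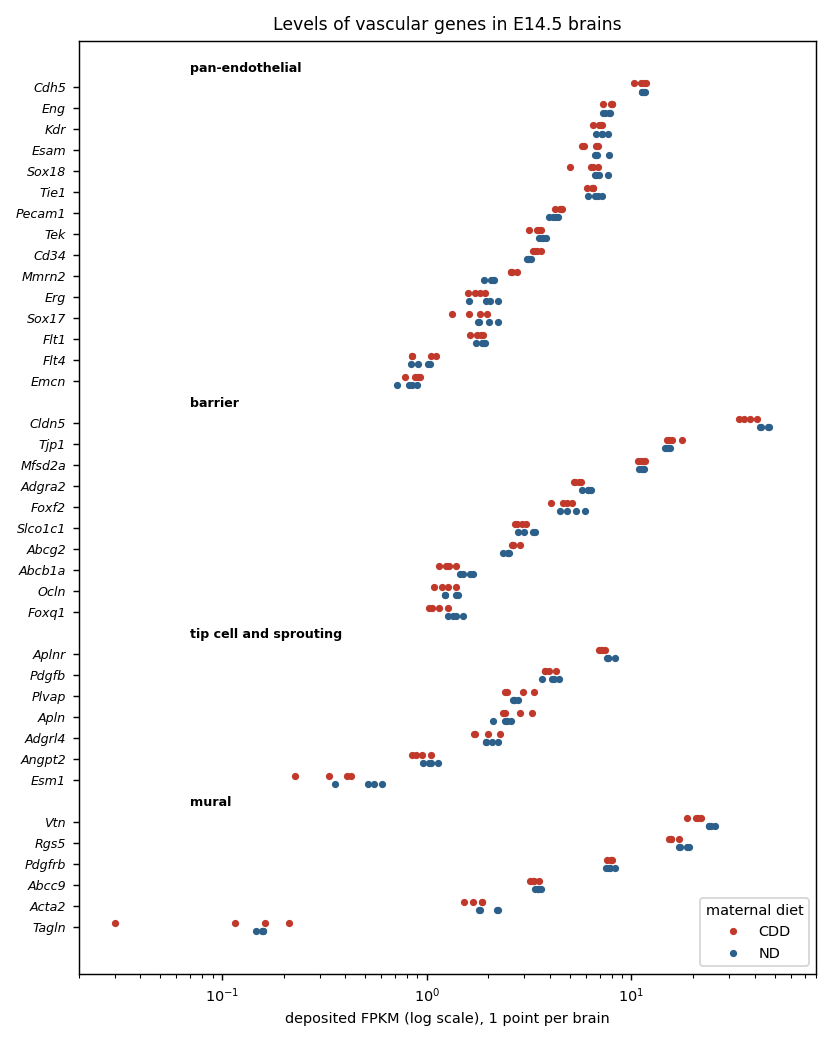
Level of each of the 38 vascular genes in each brain, as deposited FPKM on a log axis, with CDD brains in red and ND brains in blue and genes grouped by list. *Cldn5*, *Vtn* and *Rgs5* lie at the high end and *Esm1* and *Tagln* at the low end. Relative to the mean, CDD brains scatter most in *Tagln* and *Esm1*, and ND brains in *Esm1*.

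Library totals ran from 31770217 to 43121170 counts (CDD 32706627 to 43121170, ND 31770217 to 34399295). Of the 8 libraries, 2 stood apart. CDD brain 2 held 4984 counts of 28 Hox genes, which mark hindbrain and spinal cord, where the other brains held 16 to 112, and ND brain 3 had the highest sum of erythroid genes. With both left out, 418 genes in all (2.15%) were called and none of the 38 members, with adjusted p values of 0.0683 for *Cldn5*, 0.0680 for *Mmrn2*, 0.0830 for *Vtn*, 0.0838 for *Rgs5* and 0.131 for *Abcb1a* (edgeR). The log2 fold changes of these genes were then −0.27, 0.37, −0.24, −0.19 and −0.33, in the same order, close to those from all 8 brains.

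The pan-endothelial list holds genes shared by endothelial cells of all vessels. Of its 15 genes, 1 was higher, none was lower and 14 did not pass, where 8.83% of all genes tested were called. Its median log2 fold change was −0.05, where the median of all genes tested was −0.00. At an unadjusted p under 0.05 it likewise held *Mmrn2* alone. The summed level of the list was 323 to 342 CPM in CDD brains and 331 to 349 CPM in ND brains, so the diets overlapped.

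*Cdh5*, the gene of VE-cadherin, the adhesion molecule of endothelial junctions, stood at 50.02, 46.9, 48.6 and 43.0 CPM in CDD brains 1 to 4 and at 47.3, 47.6, 49.1 and 49.4 CPM in ND brains 1 to 4. The diets overlapped, and the log2 fold change was −0.04 with a standard error of 0.053 (edgeR, adjusted p = 0.739). *Mmrn2*, a matrix protein that endothelial cells secrete, stood at 10.5, 10.3, 10.3 and 10.9 CPM in CDD brains and at 8.43, 7.596, 8.24 and 8.52 CPM in ND brains. Every CDD brain was above every ND brain, and the means were 10.5 ± 0.292 and 8.20 ± 0.417 CPM (SD, n = 4 each). The log2 fold change of *Mmrn2* was 0.36 with a standard error of 0.081, or 1.28-fold (edgeR's quasi-likelihood test, adjusted p = 0.0113). It is listed at chromosome 14, bases 34097422 to 34126244 on the plus strand, on the table's own build, which was not named. *Cd34*, a sialomucin of the vessel surface, stood at 25.4, 26.6, 24.6 and 24.0 CPM in CDD brains and at 23.2, 22.8, 23.0 and 23.7 CPM in ND brains. The diets did not overlap for *Cd34* either, but the log2 fold change of 0.12 did not pass (edgeR, adjusted p = 0.224).

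The remaining pan-endothelial genes lay between −0.21 and 0.09, and none passed. The VEGF receptors *Kdr*, *Flt1* and *Flt4* had log2 fold changes of −0.05, −0.07 and 0.02 with standard errors of 0.049, 0.063 and 0.109. The angiopoietin receptor *Tek* was at −0.10 and its relative *Tie1* at −0.07. The transcription factors *Sox17*, *Sox18* and *Erg*, which set endothelial identity, were at −0.21, −0.17 and −0.15 with standard errors of 0.115, 0.096 and 0.113. The adhesion gene *Pecam1* and the TGF-β co-receptor *Eng* were at 0.09 and 0.04, *Esam*, a junction gene, at −0.15, and the sialomucin *Emcn* at 0.09. The adjusted p of these 12 genes was between 0.243 and 0.921 (edgeR).

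The barrier list covers tight junctions, efflux pumps, carriers and the factors that induce them. Of its 10 genes, none was higher, 2 were lower and 8 did not pass, where 4.59% of all genes tested were called lower. At an unadjusted p under 0.05 there were 4, all lower, beside 12.1% of all genes tested that were lower. The median of the list was −0.14. Its summed level was 291 to 307 CPM in CDD brains and 307 to 316 CPM in ND brains, and the highest CDD brain reached the lowest ND brain. The largest part of that sum was *Tjp1*, with means of 125 CPM in CDD and 117 CPM in ND brains.

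*Cldn5*, which encodes claudin-5, the main claudin of brain endothelial tight junctions, stood at 47.9, 54.0, 58.1 and 49.8 CPM in CDD brains and at 66.5, 60.5, 66.4 and 61.1 CPM in ND brains. Every CDD brain was below every ND brain, with means of 52.5 ± 4.57 and 63.6 ± 3.27 CPM (SD, n = 4 each). *Cldn5* fell by 0.28 on the log2 scale with a standard error of 0.059 (edgeR's quasi-likelihood test, adjusted p = 0.00768), and it was the single member that also passed at an adjusted p under 0.01. In the table it lies on chromosome 16, bases 18595597 to 18597012, plus strand. Of the other junction genes, the scaffold gene *Tjp1* (ZO-1) had a log2 fold change of 0.09 and occludin (*Ocln*) one of −0.10, neither past the threshold (adjusted p = 0.274 and 0.660, edgeR). *Tjp1* is also used by neural progenitors at their apical junctions, and bulk tissue does not separate the cells.

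*Abcb1a*, the P-glycoprotein efflux pump, stood at 6.37, 7.65, 7.04 and 6.79 CPM in CDD brains and at 8.28, 9.22, 9.02 and 8.00 CPM in ND brains. The diets did not overlap, the means being 6.96 ± 0.536 and 8.63 ± 0.584 CPM (SD, n = 4 each). The log2 fold change was −0.31 with a standard error of 0.094 (edgeR, adjusted p = 0.0458). This call was the least stable of the 5, since it held in 1 of the 8 fits that left out a brain, the one without CDD brain 2, and adjusted p there ranged from 0.0378 to 0.154. The gene lies on chromosome 5, bases 8710077 to 8798575, plus strand, and an unclassified gene that overlaps it held about 0.05 CPM. That level does not show how reads of the shared stretch were counted. The other efflux pump, *Abcg2*, was at 0.11, with all CDD brains (21.4 to 23.1 CPM) above all ND brains (19.3 to 20.7 CPM), and did not pass (adjusted p = 0.266, edgeR).

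Neither of the 2 carriers among the members passed the test. *Mfsd2a*, which carries lysophosphatidylcholine into the brain and holds back transcytosis, stood at 26.1, 25.1, 26.2 and 24.2 CPM in CDD brains and at 25.7, 26.1, 24.8 and 25.4 CPM in ND brains. The diets overlapped, with a log2 fold change of −0.01 and a standard error of 0.058 (edgeR, adjusted p = 0.967). The thyroid hormone carrier *Slco1c1* was at −0.13 (adjusted p = 0.338, edgeR). Among the inducers, *Adgra2* (Gpr124), the co-receptor through which Wnt7 signals to the endothelium, stood at 33.0, 32.0, 30.4 and 30.5 CPM in CDD brains and at 35.7, 33.2, 36.8 and 35.5 CPM in ND brains. The brains of the diets did not overlap for *Adgra2*, and the log2 fold change was −0.17 (edgeR, adjusted p = 0.0711). DESeq2, which placed its adjusted p at 0.0451, called it lower. That fit called 13.9% of all genes it tested, where edgeR's called 8.83%. The forkhead factors *Foxq1*, enriched in brain endothelium, and *Foxf2*, which acts in pericytes, were at −0.29 and −0.15 (adjusted p = 0.0943 and 0.351, edgeR), and *Foxq1* did not overlap between the diets.

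**Figure D2:**
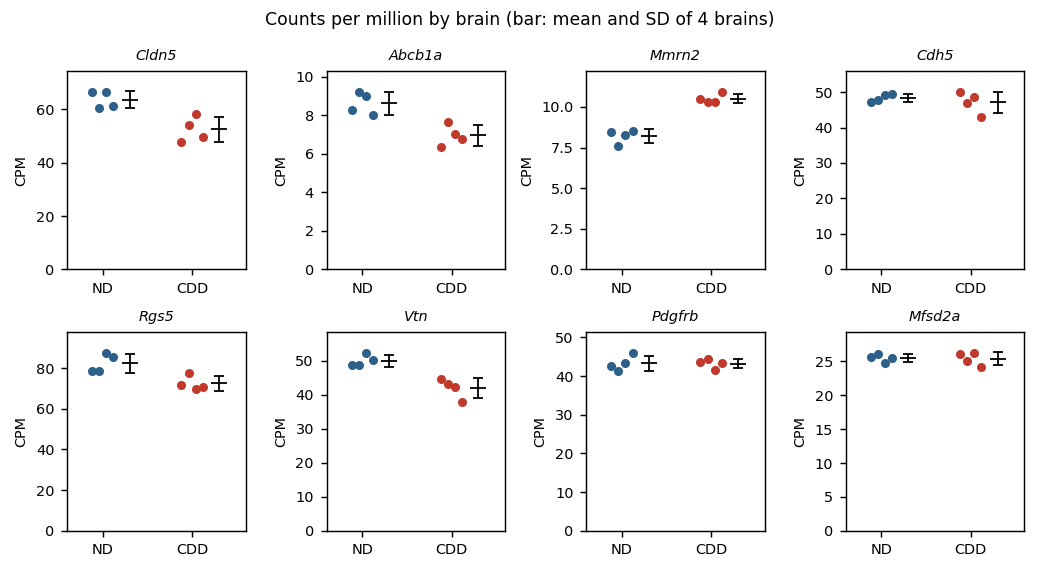
CPM by brain of 8 vascular genes, with a point for each brain, ND in blue and CDD in red, the bar giving the mean and SD of 4 brains and each axis starting at 0. *Cldn5*, *Abcb1a*, *Rgs5* and *Vtn* lie lower and *Mmrn2* higher in all CDD brains, whereas *Cdh5*, *Pdgfrb* and *Mfsd2a* overlap.

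The tip cell and sprouting list holds genes of growing vessels. None of its 7 genes passed in edgeR's test, and limma-voom called none. DESeq2 called none of the 6 for which it gave an adjusted p (*Esm1* had none). In edgeR's test 2 had an unadjusted p under 0.05 (*Aplnr* and *Esm1*, both lower), beside 12.1% of all genes tested that were lower. The list's median was −0.10. *Aplnr*, the apelin receptor and the highest of the list per length, stood at 26.4, 25.7, 26.6 and 27.4 CPM in CDD brains and at 31.0, 28.2, 28.7 and 28.7 CPM in ND brains. The diets did not overlap, and the log2 fold change was −0.14 with a standard error of 0.057 (edgeR, adjusted p = 0.145). *Apln*, the ligand of that receptor and a tip cell gene, pointed the other way at 0.18 with a standard error of 0.109, and its brains overlapped.

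*Esm1*, a secreted proteoglycan of tip cells, stood at 0.483, 0.898, 0.860 and 0.694 CPM in CDD brains and at 1.17, 0.750, 1.10 and 1.28 CPM in ND brains. It had the largest difference of all 38 members at −0.54, but also a standard error of 0.253, and ND brain 2 lay among the CDD brains (edgeR, adjusted p = 0.199). *Angpt2*, the vessel-destabilising angiopoietin, was at −0.16, *Adgrl4* at −0.10 and *Pdgfb*, the signal that recruits pericytes, at −0.06. *Plvap*, a component of fenestrated and immature vessels that is lost as the barrier matures, was at 0.05 with a standard error of 0.118. The summed level of the list was 69.4 to 76.9 CPM in CDD brains and 74.4 to 77.5 CPM in ND brains.

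The mural list had the lowest median of the 4 lists, −0.21. All 6 genes had a log2 fold change below 0, though *Pdgfrb*, almost at 0, was above it with DESeq2 and with RLE scaling. Called lower were 2 of the 6, beside 4.59% of all genes tested, while 4 did not pass. That median was −0.12 without CDD brain 1, where *Tagln* had 2 counts. The summed level was 184 to 197 CPM in CDD brains and 202 to 218 CPM in ND brains, without overlap. *Rgs5* and *Vtn*, the 2 called genes, made up most of that sum, so it largely restates their calls. In RNA from whole brain, fewer cells of a type and less RNA per cell cannot be told apart.

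*Vtn*, the gene of vitronectin, which brain pericytes secrete into the vessel matrix, stood at 44.6, 43.2, 42.3 and 37.8 CPM in CDD brains and at 48.7, 48.7, 52.2 and 50.1 CPM in ND brains. All CDD brains were below all ND brains, with means of 42.0 ± 2.96 and 49.9 ± 1.65 CPM (SD, n = 4 each). *Vtn* fell by 0.25 on the log2 scale with a standard error of 0.056 (edgeR's quasi-likelihood test, adjusted p = 0.0103). Without ND brain 3 the adjusted p was 0.0580. It is listed at chromosome 11, bases 78389917 to 78393150, plus strand.

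*Rgs5*, a regulator of G protein signalling and a classical pericyte marker, stood at 71.9, 77.9, 69.8 and 70.8 CPM in CDD brains and at 78.4, 78.4, 87.4 and 85.7 CPM in ND brains. The highest CDD brain, CDD brain 2, came within 1 CPM of the lowest ND brain, and the means were 72.6 ± 3.63 and 82.5 ± 4.74 CPM (SD, n = 4 each). *Rgs5* fell by 0.18 with a standard error of 0.050 (edgeR, adjusted p = 0.0268). The call was lost without CDD brain 1, ND brain 3 or ND brain 4, and adjusted p over the 8 such fits ran from 0.0168 to 0.139. Its place in the table is chromosome 1, bases 169483070 to 169523382, plus strand.

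*Pdgfrb*, the receptor that pericytes need to follow the endothelium, stood at 43.7, 44.3, 41.6 and 43.3 CPM in CDD brains and at 42.6, 41.3, 43.3 and 45.9 CPM in ND brains. The values overlapped throughout, with equal means of 43.3 CPM and a standard error of 0.052 on the log2 scale (edgeR, adjusted p = 0.987). *Abcc9*, a channel subunit of pericytes, was at −0.07. The contractile genes *Acta2* and *Tagln* were at −0.23 and −0.24 with standard errors of 0.126 and 0.428, and neither passed (adjusted p = 0.283 and 0.793, edgeR). *Pdgfrb* is also made by meningeal fibroblasts, and *Acta2* and *Tagln* by other contractile cells.

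**Figure D3:**
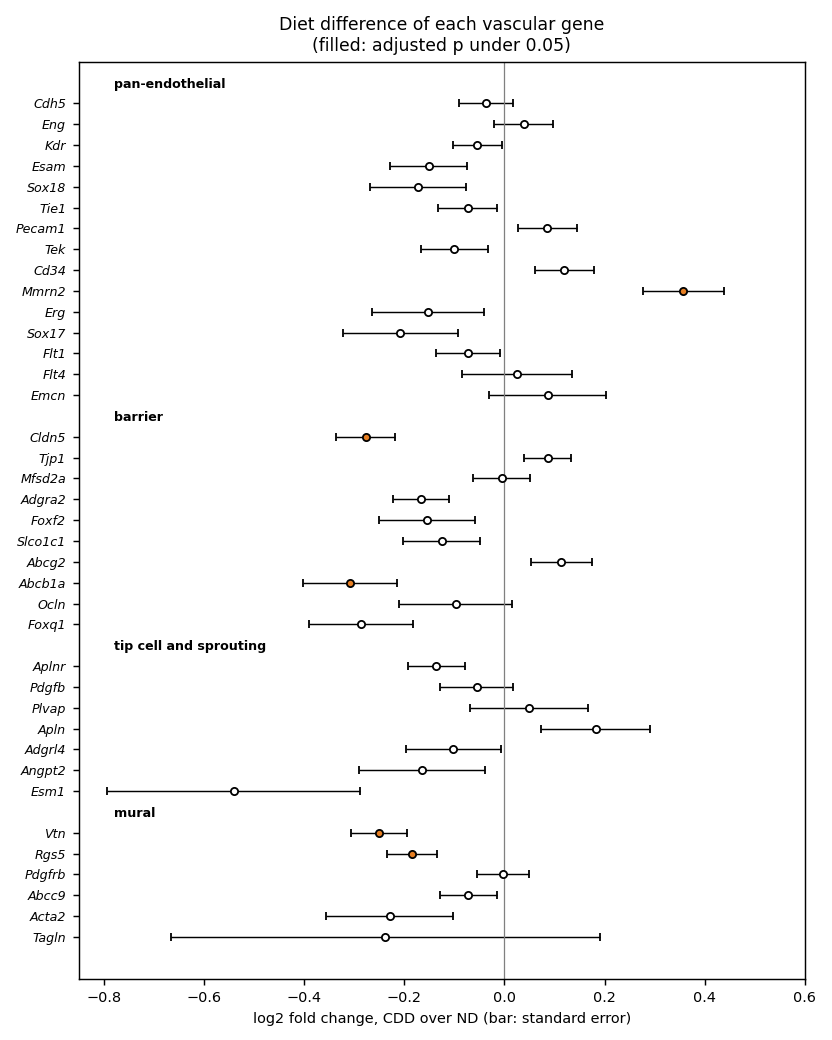
Log2 fold change of CDD over ND of each of the 38 genes with its standard error as a bar, grouped by list and ordered by FPKM within it, with filled points for an adjusted p under 0.05. Of the 6 mural genes *Pdgfrb*, whose sign changes with the scaling, lies at 0 and the others to the left of it, and of the 15 pan-endothelial genes *Mmrn2* alone is filled.

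Across all 38 genes, 28 had a log2 fold change below 0 and 10 above, with a median of −0.10, where all genes tested divided into 9860 below and 9507 above. The brains of the diets did not overlap in 10 members, 3 with CDD above and 7 with CDD below, beside 15.0% of all genes tested (7.65% above and 7.39% below). Those below were *Cldn5*, *Adgra2*, *Abcb1a*, *Foxq1*, *Aplnr*, *Vtn* and *Rgs5*, and those above *Mmrn2*, *Cd34* and *Abcg2*. Summed over all members, the level was 892 to 900 CPM in CDD brains and 925 to 957 CPM in ND brains.

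Ratios within a brain set each called gene against the general marker of its cell type. They were chosen after the values were seen and are given without a test. *Cldn5* over *Cdh5* was 0.957, 1.15, 1.197 and 1.16 in CDD brains and 1.41, 1.27, 1.35 and 1.24 in ND brains, again without overlap. *Mmrn2* over *Cdh5* was 0.210 to 0.254 in CDD brains and 0.160 to 0.178 in ND brains. *Abcb1a* over *Cdh5*, at 0.127 to 0.163 and 0.162 to 0.194, overlapped. *Rgs5* over *Pdgfrb* was 1.63 to 1.76 in CDD brains and 1.84 to 2.02 in ND brains, and *Vtn* over *Pdgfrb* was 0.872 to 1.02 and 1.09 to 1.204. Since the called genes were chosen for their difference and both reference genes had log2 fold changes close to 0, these ratios largely restate the calls. *Pdgfrb* over *Cdh5* was 0.857 to 1.01 in CDD brains and 0.868 to 0.930 in ND brains, and the summed mural over summed pan-endothelial level was 0.538 to 0.603 and 0.596 to 0.656, both with overlap.

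**Figure D4:**
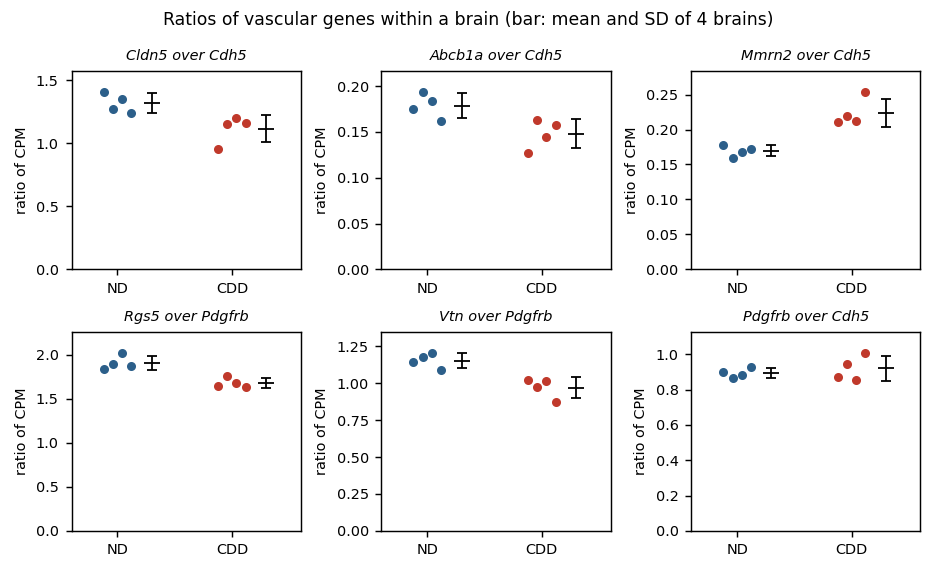
Ratio of the CPM of a vascular gene to that of the general endothelial marker *Cdh5* or the pericyte receptor *Pdgfrb* in the same brain, with a point for each brain and a bar for mean and SD of 4 brains. *Cldn5* over *Cdh5*, *Rgs5* over *Pdgfrb* and *Vtn* over *Pdgfrb* lie lower in all CDD brains, *Mmrn2* over *Cdh5* higher, and the other ratios overlap.

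Beside the 38 genes, 108 further vascular genes in 6 lists were looked at, of which 107 passed the filter. Of these, 9 were higher, 10 were lower and 88 did not pass, that is 17.8% called, and their median log2 fold change was −0.06. The share of all genes tested was 8.83% (4.24% higher and 4.59% lower), which also stands beside the counts of each list below. The other endothelial list (23 genes, median −0.14) held 1 lower gene, *Rasip1*, which endothelial cells need to open a lumen (−0.30, edgeR, adjusted p = 0.0253), and 1 higher gene, *Tal1* (0.22, edgeR, adjusted p = 0.0262). *Tal1* also serves blood cells and neurons.

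The other barrier list had 2 genes lower, 1 higher and 16 that did not pass of 19, with a median of −0.11. *Slc22a8*, an organic anion carrier of the barrier that is also found in choroid plexus and meninges, was at 6.89 ± 0.847 CPM in CDD and 10.5 ± 0.973 CPM in ND brains (SD, n = 4 each), a log2 fold change of −0.61 (edgeR, adjusted p = 0.00186). The junction plaque gene cingulin, *Cgn*, fell by 0.34 (edgeR, adjusted p = 0.00708), and the junction adhesion gene *Jam2* was higher by 0.31 (edgeR, adjusted p = 0.00287). The glucose carrier *Slc2a1* was at 0.11 and did not pass (edgeR, adjusted p = 0.148). *Flvcr2*, the gene of the choline transporter Mfsd7c that the study is about, was at 4.92 ± 0.809 CPM in CDD and 5.49 ± 0.529 CPM in ND brains (SD, n = 4 each), with overlap and a log2 fold change of −0.15 (edgeR, adjusted p = 0.513).

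In the list of the Wnt and Norrin signal to the barrier, 2 of 15 genes were higher and none was lower, with a median of 0.06. These were the co-receptor *Lrp6* (0.15, edgeR, adjusted p = 0.0496) and the Wnt target *Apcdd1* (0.17, edgeR, adjusted p = 0.0135), both of which neural progenitors express too. The ligands *Wnt7a* and *Wnt7b* were at −0.07 and 0.10, and the targets *Axin2* and *Lef1* at −0.06 and −0.10, none past the threshold. Of 23 genes of angiogenic signals, 2 were higher (*Jag1*, a Notch ligand, 0.20, and *Itgb8*, a TGF-β-activating integrin of neural cells, 0.28) and 2 lower (*Pdgfa*, −0.29, and the chemokine *Cxcl12*, −0.18), with a median of 0.01. *Vegfa*, the main attractant of tip cells, was at 54.2 to 81.6 CPM in CDD brains and 82.1 to 85.1 CPM in ND brains, without overlap. Its log2 fold change of −0.25, with a standard error of 0.135, did not pass (edgeR, adjusted p = 0.323).

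The other mural list was made of 18 further pericyte and smooth muscle genes. Of the 17 that were tested, 4 were lower, 2 were higher and 11 did not pass, with a median of −0.23. Its summed level, to which abundant genes such as *Zic1* add most, was 608 to 646 CPM in CDD brains and 608 to 620 CPM in ND brains, with overlap, and the CDD mean was 1.03 times the ND mean. The lower ones were *Myh11*, the smooth muscle myosin (−0.73), *Higd1b* (−0.70) and *Ndufa4l2* (−0.59), both enriched in pericytes, and *Gucy1b1*, a subunit of the nitric oxide receptor (−0.27), with adjusted p of 0.0174, 0.0454, 0.0315 and 0.00855 in edgeR's test. *Myh11* and *Higd1b* were low, with means of at most 2.10 and 1.66 CPM in either diet. The higher ones were *Notch3* (0.17) and *Ebf1* (0.24), which neural cells of the embryo also express. Bulk tissue does not show the source cells of the lower genes, here or in the other lists, either. In the vascular basement membrane list, with a median of −0.06, the nidogen *Nid1* was lower (−0.16), perlecan, *Hspg2*, was higher (0.19) and the other 9 genes, the collagen IV chains *Col4a1* and *Col4a2* among them, did not pass.

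Markers of other cells moved in the same brains. Of 12 macrophage genes none was higher, 3 were lower and 9 did not pass, with a median of −0.22 and a summed level of 84.5 to 94.4 CPM in CDD brains and 95.3 to 112 CPM in ND brains. Of 12 meningeal fibroblast genes 2 were higher, 6 were lower and 4 did not pass, with a median of −0.19 and a summed level of 527 to 580 CPM in CDD brains and 561 to 670 CPM in ND brains. Of 8 neural progenitor genes 5 were higher and 3 did not pass, with a median of 0.24 and a summed level of 1655 to 1985 CPM against 1382 to 1526 CPM. Of 8 neuron genes 1 was lower and 7 did not pass, with a median of −0.01. The macrophage and meningeal medians were below 0, like the 2 barrier and 2 mural members that were lower, whereas the progenitor median was above 0. The part of these cells in the lower members was not tested.

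Of 10 erythroid genes 2 were higher, the embryonic globins *Hbb-y* and *Hba-x*, and 8 did not pass, with a median of −0.28 and sums of 764 to 1426 CPM in CDD brains and 827 to 2995 CPM in ND brains. Of 8 choroid plexus genes 1 was higher and 7 did not pass, with a median of 0.15. Muscle and skin were hardly present, since 3 of 9 skeletal muscle genes and 2 of 6 skin genes passed the filter and none of them was called by edgeR (1 in each list had an unadjusted p under 0.05), and the muscle genes *Tnnc2*, *Ckm*, *Myog* and *Myod1* were at 0 in some brains.

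**Figure D5:**
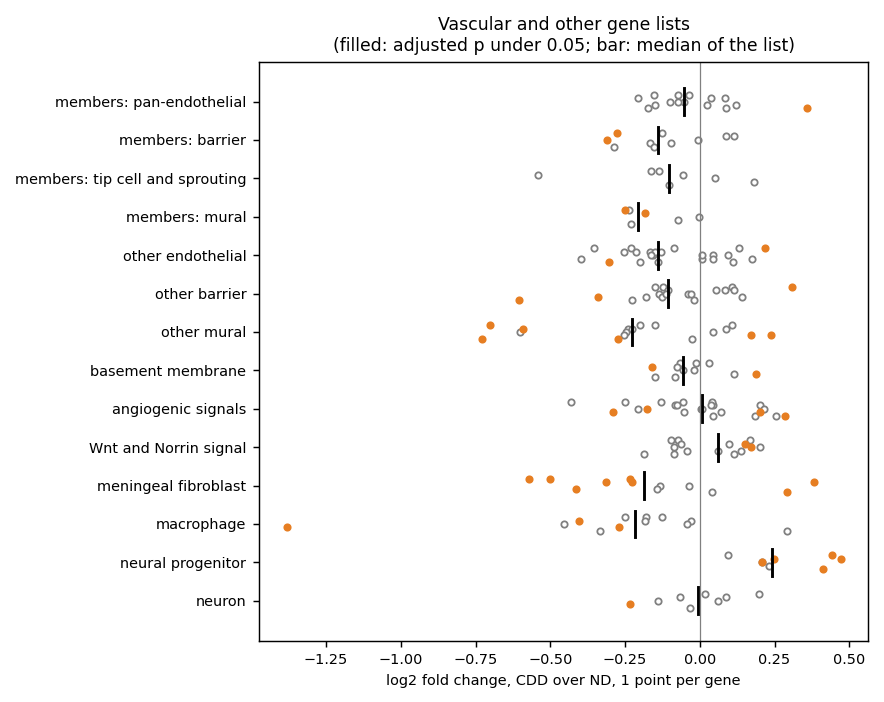
Log2 fold change of CDD over ND of each tested gene in the 4 member lists, the 6 further vascular lists and 4 lists of other cells, with filled points for an adjusted p under 0.05 and a bar at each median. The medians of both mural lists (−0.21 and −0.23) lie near those of macrophage (−0.22) and meningeal fibroblast genes (−0.19), and that of progenitor genes (0.24) lies on the other side of 0.

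Some members share their place with another gene, and whether reads were counted by strand was not given. Of the 38, 13 overlap another gene of the table, 6 of them a protein-coding one. *Eng* overlaps *Fpgs*, *Adgra2* overlaps *Brf2*, *Angpt2* overlaps *Mcph1*, *Esm1* overlaps *Gzmk*, *Plvap* overlaps *Gtpbp3* and *Tagln* overlaps *Pcsk7*. The counts of the 13 are thus less certain. A low level of the overlapping gene, such as *Gzmk* (CDD mean 0.026, ND mean 0.088 CPM), does not settle how shared reads were counted. Of the called genes, *Abcb1a* alone is among the 13.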

How the data were processed

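Bulk poly-A RNA-seq of 4 CDD and 4 ND whole brains was analysed, grouped by the labels. Raw read counts for each gene were deposited, along with a signal in which the authors had divided the count by 1 size factor per library, and FPKM, which the authors derived from the signal and the listed gene lengths. Their fold changes, p-values and 3 shorter gene lists were not used. Per the labels, HISAT2 2.0.5, featureCounts 1.5.0-p3 and DESeq2 1.20.0 were used. The genome build is not given in the sources used here, so gene positions are those of the table, and 0 of 38 starts lay within 1000 bases of the RefSeq GRCm38.p6 start.

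Counts were filtered with filterByExpr, scaled by TMM and tested with the robust quasi-likelihood test of edgeR 4.0.16 (R 4.3.3), with diet as the only term and an adjusted p under 0.05 as threshold. The script was tested on simulated data, where it called 29 of 65 changes of 0.3 on the log2 scale and 57 of 65 changes of 1. A gene that did not pass may thus still differ by a small amount. DESeq2 1.42.0, limma-voom (limma 3.58.1), other scalings and filters, a replicate block and leaving out each brain were alternatives. Common biological coefficient of variation was 0.0814. The members and lists were chosen with earlier results of these data known. Named with every brain are called members and, in each list, the highest by FPKM and the 2 with the smallest p, and *Adgra2*, *Mfsd2a* and *Pdgfrb*, which were added after their values were seen. In the other vascular lists called genes are named. Python 3.11.15, pandas 2.3.3 and matplotlib 3.10.9 drew the figures.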

Additional observations from a re-analysis of the deposited data

Results flagged for a closer look

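In 4 of the 76 sets of 4 brains examined (each of the 38 genes in each diet) a single brain lay far from the other 3 by Dixon's test at the 95% level, where chance gives about 1 in 20, or 3.8. *Eng* was at 29.3 CPM in CDD brain 4, with the other CDD brains at 32.3 to 32.8 CPM. *Abcg2* was at 23.1 CPM in CDD brain 4 (others 21.4 to 21.7 CPM) and at 19.3 CPM in ND brain 2 (others 20.5 to 20.7 CPM). *Plvap* was at 5.56 CPM in ND brain 2, with the other ND brains at 5.28 to 5.32 CPM. None of these 3 genes was called by edgeR.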

How the results depend on the processing

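The count of 1 member higher and 4 lower was the same under RLE and upper-quartile scaling, without the filter, with at least 10 counts in every brain and with the replicate block. DESeq2 called 6 of the 36 members it tested (*Adgra2* added), beside 13.9% of all genes it tested, where the main fit called 8.83%. With limma-voom 4 members were called (*Abcb1a* lost), beside 7.3% of all genes tested. At an adjusted p under 0.01 the counts were 0 higher and 1 lower (*Cldn5*), beside 2.46% of all genes tested. With both CDD brain 2 and ND brain 3 left out, an alternative added after seeing the data, they were 0 and 0. Leaving out a brain at a time left 1 to 1 higher and 1 to 4 lower, with 2 lower without CDD brain 1 or ND brain 4 and 1 without ND brain 3. *Cldn5* and *Mmrn2* were called in all 8 of these fits. The list medians ran from −0.07 to −0.03 (pan-endothelial), −0.18 to −0.11 (barrier), −0.13 to −0.047 (tip cell) and −0.23 to −0.12 (mural). Counts of all genes called ran from 471 without ND brain 3 and 615 without ND brain 4 to 2495 without CDD brain 3. The cause was not tested.

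Genes near 0 changed sign, as did *Tagln*, which was at −0.24 but rests on few counts. *Pdgfrb* was at 0.0017 with DESeq2 and 0.00081 with RLE scaling, and leaving out a brain moved *Pdgfrb* between −0.023 and 0.027, *Cdh5* between −0.063 and 0.0030, *Flt4* between −0.054 and 0.086, *Mfsd2a* between −0.020 and 0.016, *Plvap* between −0.044 and 0.11 and *Tagln* between −0.53 and 0.071.

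The labels number the brains 1 to 4 in both diets, but deviations of same-numbered brains correlated at 0.105, −0.133, 0.117 and 0.232. With 3 of 4 over 0.1 and 1 below 0, and no shared litter or day named, the numbers were not taken as pairs. With the replicate block 1812 genes were called in place of 1710. Of the 4 CDD brains, 3 correlated best with the ND brain of their own number, at most a hint from the data and not from the design. For CDD brains 1 and 3, ND brain 2 came close (0.105 against 0.097, and 0.117 against 0.092). CDD brain 2 correlated best with ND brain 4 (0.214). At these depths *Esm1* and *Tagln* rest on at most 44 and 14 counts per brain, which limits both.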
